A study of Mus musculus with 18 samples.

Results

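The clustered histone genes are the genes whose older mouse names begin with Hist1, Hist2, Hist3 or Hist4, and the name alone chose them here. There were 68 of them among the 23420 genes listed in each library. They comprised 6 genes for the linker histone H1, 18 for H2A, 19 for H2B, 12 for H3 and 13 for H4. Enough counts for testing were found for 25 of them, namely 4 H1, 8 H2A, 3 H2B, 5 H3 and 5 H4 genes, while 43 stayed below the count filter and 3 of those 43 were listed at 0 in every library. Genes that are low in all groups but 1 pass such a filter through that group, so counts over the 25 describe only those 25.

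RNA was sequenced from dendritic cells grown from C57BL/6 mouse bone marrow in 20 ng/ml GM-CSF and sorted alive for high CD11c, an integrin of dendritic cells, after 8 hours of treatment. There were 18 libraries, 3 in each of 6 groups. Wild-type (WT) cells received medium, LPS (a bacterial envelope lipid sensed by TLR4), IL-10 with TGF-beta (cytokines that restrain dendritic cell activation), or LPS with IL-10 and TGF-beta. Bat3 fl/fl CD11c Cre cells (cKO) received medium or LPS. In cKO cells Cre is driven by the CD11c promoter, so deletion of Bat3 (now Bag6, a chaperone of tail-anchored and misfolded proteins) is limited to cells that have switched that promoter on, and there was no cKO group with the cytokines. The WT cells are not labelled as carrying Cre. The labels speak of 5 biological replicates, 3 libraries per group were analysed here, and nothing in the labels ties a library to an animal or a culture. P-values therefore measure the spread between these libraries, which may be technical.

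Histone proteins package DNA. Pairs of H2A, H2B, H3 and H4 form the nucleosome core, and H1 binds the linker DNA where it enters and leaves the core. Most clustered histone genes are transcribed in S phase, when new DNA needs new nucleosomes. Their mRNAs lack introns and end in a short stem-loop that is bound by SLBP in place of a poly(A) tail. Some of the clustered genes also give longer, polyadenylated transcripts, which are known from differentiated cells that no longer divide. Growing marrow cultures contain dividing precursors, and LPS is known to stop division as dendritic cells mature.

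The stem-loop sequences show which transcripts contain the motif of the replication-type 3′ end, though it need not lie at the annotated end. They are given for members the results turn on. The histone stem-loop motif of 16 letters was searched on the transcript strand of GENCODE M21 transcripts, and each match stands in capitals below, with 5 flanking bases on either side. The first 3 genes fell with LPS in WT cells, and the other 4 were higher in cKO than in WT cells under LPS.
Hist1h2ao: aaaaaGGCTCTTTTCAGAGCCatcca
Hist2h3c2: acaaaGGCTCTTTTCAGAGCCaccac
Hist1h4d: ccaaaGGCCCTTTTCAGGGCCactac
Hist1h1c: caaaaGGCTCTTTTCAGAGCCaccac
Hist3h2a: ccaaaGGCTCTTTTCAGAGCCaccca
Hist1h1e: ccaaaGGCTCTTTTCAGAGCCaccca
Hist1h4i: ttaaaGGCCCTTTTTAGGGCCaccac
The stem-loop motif was found in 43 of the 67 members that matched a transcript and in 20 of the 25 tested members, against 0.0551% of 141689 other transcripts, whose lengths differ. It was not found for Hist1h2bc, Hist2h3b, Hist2h2be, Hist1h3i and Hist1h1b in the transcripts used, which says only that those models lack it.

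The distance from the stem-loop to the transcript's end differed widely between annotations. In the GENCODE transcript of Hist1h2ao, 31 bases followed the stem-loop, and in that of Hist2h2aa1 35. For Hist1h4i 330 bases followed, for Hist1h1c 840, for Hist1h1e 1153 and for Hist3h2a 1643. For Hist2h3c2 and Hist1h4d, which fell with LPS in WT cells, 377 and 770 bases followed. The transcripts of Hist1h4i, Hist1h1c and Hist3h2a held a poly(A) signal in their last 40 bases, the window searched. Hist2h4, called lower with LPS in WT cells, held it too, as did Hist2h2be and Hist4h4, among others. It was not found there for Hist1h1e, Hist1h2bc, Hist1h2bg and Hist2h2aa1, which were higher in cKO under LPS. Nor was it found for Hist1h2ao, Hist2h3c2 and Hist1h4d, which fell with LPS in WT cells. The gene models used for the deposited counts carried such extensions for part of the members, and some were shorter than the GENCODE transcript. The model of Hist1h4i held 537 against 727 bases and that of Hist1h4d 312 against 1138. Of the 25 tested members 10 had a model over 100 bases longer than the RefSeq gene, for example 1561 against 725 bases for Hist1h1c. The span of Hist1h2bc in RefSeq, 8282 bases, is far longer than its model of 728 bases, so it could not be compared in this way.

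Copies share sequence, which limits what can be said of a single gene. Stretches of 50 bases that also occur in other members made up 93.5% of the Hist1h2ao transcript, 89.2% of Hist2h2aa1, 79.7% of Hist2h3b and 63.5% of Hist2h3c2. They made up 29.3% of Hist1h2bc, 16.7% of Hist1h1e, 8.54% of Hist1h1c and 2% of Hist3h2a. Stretches that also occur in transcripts of genes outside the members made up 31.5% of Hist3h2a, 14.4% of Hist1h1e and 0.723% of Hist1h2bc. For Hist1h2ao this share was 38.1%, for Hist2h2aa1 89.4%, for Hist2h3b 79.7%, for Hist2h3c2 63.5% and for Hist1h1c 0%. The authors' estimation had to divide reads among copies, so levels of Hist1h2ao, Hist2h2aa1, Hist2h3b and Hist2h3c2 are uncertain as levels of single genes. Each class was also summed, but reads shared with genes outside the members leave the sums uncertain too. In the table with 5 class sums in place of the members, 58.7% of rows were called for LPS in WT and 64.2% in cKO, 30.2% between genotypes in medium and 35.4% under LPS, 35.3% for the cytokines, 40.3% for the cytokines under LPS, 47% for LPS on top of the cytokines, 17.4% for the genotype interaction and 21% for the cytokine interaction. Of the 67 members placed in RefSeq on GRCm38.p6, 54 lay on chromosome 13 between positions 21715711 and 23934913. There were 10 on chromosome 3, 2 on chromosome 11 (Hist3h2a among them) and 1 on chromosome 6 (Hist4h4).

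Promoters are shown for 2 H1 and 2 H2A genes that the results turn on. The 150 bases before the RefSeq start (GRCm38.p6) of 4 genes are shown, with motif letters in capitals where either strand holds them. The motifs are the CAAT box (CCAAT), the TATA box (TATAAA), the octamer bound by Oct factors (ATTTGCAT) and the H1 box (AAACACA).
Hist1h1c, chr13:23738657-23738806, + strand: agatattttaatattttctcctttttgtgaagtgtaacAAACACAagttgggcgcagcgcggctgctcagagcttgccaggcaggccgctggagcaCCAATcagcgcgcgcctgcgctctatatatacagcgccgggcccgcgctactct
Hist1h1e, chr13:23622559-23622708, − strand: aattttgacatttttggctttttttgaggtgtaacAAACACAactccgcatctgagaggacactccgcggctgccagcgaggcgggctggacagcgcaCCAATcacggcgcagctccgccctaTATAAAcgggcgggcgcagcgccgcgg
Hist1h2ao, chr13:21810217-21810366, + strand: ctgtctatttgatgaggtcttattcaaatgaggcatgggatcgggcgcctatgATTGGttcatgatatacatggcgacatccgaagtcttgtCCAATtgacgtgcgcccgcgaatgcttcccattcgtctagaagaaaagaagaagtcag
Hist3h2a, chr11:58954535-58954684, + strand: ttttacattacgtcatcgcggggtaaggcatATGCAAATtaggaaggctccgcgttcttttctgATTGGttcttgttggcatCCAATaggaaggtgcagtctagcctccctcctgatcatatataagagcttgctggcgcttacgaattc
Over windows from 250 bases before to 50 after the start, searched on both strands, CCAAT was present in 54 of 63 member promoters (85.7%) and in 37.4% of all 32851 promoters. It was present in all 6 H1, 18 H2A, 17 H2B and 10 H3 promoters and in 3 of 12 H4 promoters. AAACACA was present in 5 of 6 H1 promoters, against 7.18% of all promoters. The octamer, or its reverse ATGCAAAT, was present in 7 of 18 H2A and 7 of 17 H2B promoters, in none of the H1, H3 and H4 promoters, and in 1.74% of all promoters. Hist1h2ao, which fell with LPS, and Hist3h2a, which rose, both hold CCAAT. All 18 H2A promoters do, so CCAAT could not tell any 2 H2A genes apart. In the 150 bases printed, ATGCAAAT stands in Hist3h2a and not in Hist1h2ao, and its part was not tested.

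Several facts of the whole series bear on the results. Total expected counts ran from 8056831 to 12068759 per library. Bag6 was 4.56 to 11.3 CPM (counts scaled to a common library size, with TMM factors) in the 6 cKO libraries and 22.8 to 27.6 CPM in the 12 WT libraries, with no overlap. Within cKO cells Bag6 was 5.56 ± 1.52 CPM in medium and 9.36 ± 2.68 CPM with LPS, and these libraries overlapped. By edgeR's quasi-likelihood test its log2 change was 0.76 ± 0.19 (adjusted p = 0.0018). Its genotype by LPS interaction was 0.72 ± 0.25 (adjusted p = 0.048). The part of this difference in the histone values was not tested. Ribosomal precursor RNA (Rn45s) took 1.28% to 4.01% of counts in cKO medium and 4.48% to 8.88% elsewhere. The first replicate of both cKO groups carried Xist, the RNA of the inactive X of female cells, at 526 and 1014 CPM, against at most 1.12 CPM in the other 16 libraries. Dendritic cell markers, Itgax (CD11c), Zbtb46 and Cd74 among them, were present in all groups and summed to 1363 to 9923 CPM over 9 genes, with 1 of the 9 at 0 in all cKO LPS libraries, and B cell, T cell and erythroid markers summed to at most 2.27 CPM in any library. TMM factors were 0.797 to 0.807 in cKO LPS and 1.12 to 1.17 in both medium groups, which matters for comparisons with cKO LPS.

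The clustered histone genes together took a small part of each library, and that part was smallest in LPS-treated WT cells. All 68 members summed to 385, 419 and 402 CPM in WT medium. With LPS the WT sum was 167, 190.1 and 192 CPM, below every medium library. The cytokines alone gave 323, 285 and 350.5 CPM, and LPS with the cytokines gave 176, 169 and 162 CPM. In cKO cells the sum was 244, 359 and 255 CPM in medium and 369, 378 and 348 CPM with LPS, so the cKO LPS libraries lay above all 6 WT libraries that had received LPS. As plain percentages of counts, with no TMM scaling, the members took 0.0279% to 0.0301% in cKO LPS and 0.0273% to 0.0407% in cKO medium, which overlapped, 0.0167% to 0.0189% in WT LPS and 0.0445% to 0.0477% in WT medium. In TPM, which is scaled by length, the sums were 602 ± 20.3 (SD, n = 3) in cKO LPS, 937 ± 239.5 in cKO medium, 401 ± 26.9 in WT LPS and 1398 ± 86.3 in WT medium. Between cKO medium and cKO LPS the total was therefore higher with LPS in mean CPM and lower in TPM, so its direction depends on the scale, while cKO LPS was above WT LPS and WT LPS below WT medium on all 3 scales. Sorted cells were sequenced in bulk, so fewer cells of a type that transcribes a gene and less RNA per cell cannot be told apart.

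By read share over all 18 libraries, which favours long transcripts, H2A genes held 45.6% of the members' summed CPM, H2B 23.2%, H1 18.2%, H3 9.31% and H4 3.66%. The order differed by group: in cKO LPS the H2B sum, 142.1 ± 11 CPM, was above the H2A sum, 108.4 ± 1.23 CPM. Hist1h1c, which encodes H1.2, held 81.5% of the H1 counts, Hist1h2ao 69.7% of the H2A counts and Hist1h2bc 89.8% of the H2B counts, again over all libraries. The place of Hist1h2ao in its class changed with the group, from 190.4 of 219.8 CPM in WT medium to 26.1 of 64.7 CPM in WT LPS and 34.4 of 108.4 CPM in cKO LPS. H3 and H4 were more evenly divided, with 46.5% in Hist2h3c2 and 37.5% in Hist1h4i. On the TPM scale Hist1h2ao was the highest member in WT medium, at 822 ± 66.8 TPM, followed by Hist1h2bc at 112 ± 14.4 and Hist2h3b at 107 ± 25.7, which did not differ beyond their spread. Hist1h1c, at 63.9 ± 6.43 TPM, and Hist2h3c2, at 53.4 ± 9.71 TPM, came next and also lay within their spread. In cKO LPS the order was another: Hist1h2bc led at 251 ± 19.1 TPM, Hist1h2ao stood at 97.6 ± 13.3, and Hist1h1c and Hist2h2aa1 followed at 54.9 ± 6.87 and 54.5 ± 6.91.

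**Figure D1:**
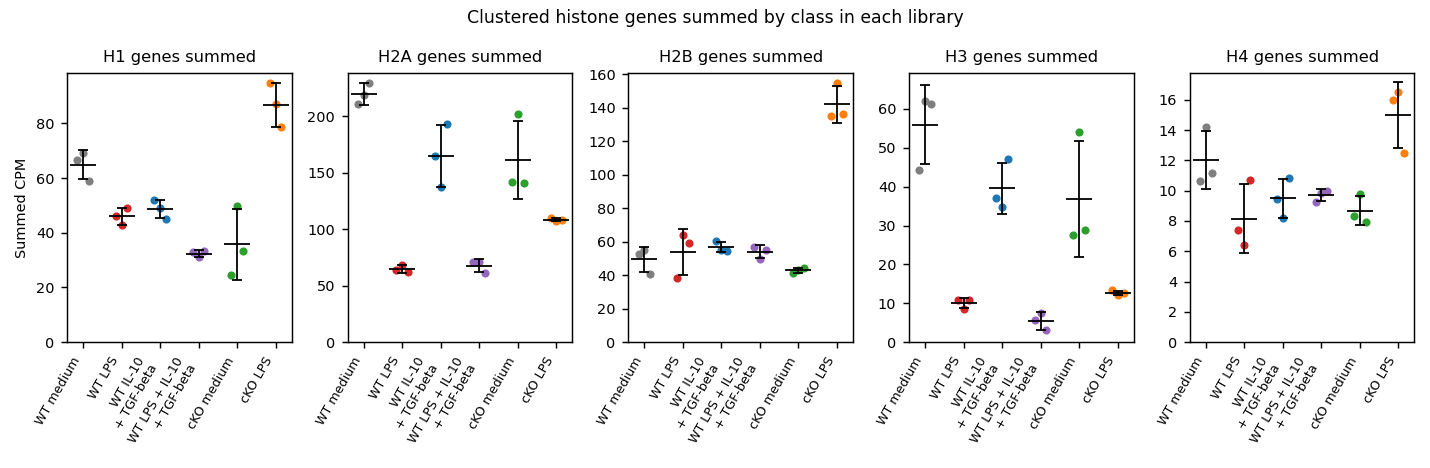
Summed CPM (vertical axes, linear, from 0) of all clustered genes of each histone class in the 18 libraries. Points are libraries, horizontal marks are means and bars are SDs of 3 libraries; H2A and H3 are low in all LPS-treated groups, while H2B stands at 135 to 155 CPM only in cKO LPS, against 38.5 to 63.9 CPM in the other 5 groups.

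The first question was how LPS changed histone transcripts in WT cells. H2A and H3 transcripts fell, with H2A sums going from 211 to 230 CPM down to 61.7 to 68.3 CPM and H3 sums from 44.2 to 62.1 CPM down to 8.63 to 10.9 CPM. H1 and H4 sums fell less, and the H2B sum showed no call. Of the 25 tested members 12 were called lower and 2 higher at an adjusted p under 0.05 (edgeR's quasi-likelihood test, Benjamini-Hochberg over all genes tested), where 28.9% of the 11876 tested genes were called lower and 29.8% higher (58.7% in either direction). The median log2 fold change was -1.07 over the 25 members and 0.01 over all tested genes.

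Among H2A genes, Hist1h2ao made up most of the fall. Its level was 180.4, 187 and 203 CPM in WT medium and 31.8, 20.7 and 25.7 CPM in WT LPS, so every LPS library was far below every medium library. The log2 fold change was -2.87 ± 0.20 (SE; adjusted p = 2.2e-09). Hist1h2ab, another H2A gene, fell from 3.15, 2.82 and 2.94 CPM to 0.721, 0.485 and 0.585 CPM. Hist3h2a, an H2A gene outside the large cluster, moved the other way. It was 9.61, 12.1 and 8.26 CPM in medium and 17.2, 27.1 and 17.9 CPM with LPS, a log2 fold change of 1.05 ± 0.17 (adjusted p = 2.3e-05). Hist2h2aa1 also rose, by 0.61 ± 0.18 (adjusted p = 0.0053), from 9.05, 10.5 and 6.79 CPM to 13, 12.9 and 14.4 CPM. The fall of the H2A sum, a log2 fold change of -1.76 ± 0.13 (adjusted p = 3.8e-10), was therefore the balance of genes that changed in opposite directions.

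Of the 5 tested H3 genes 3 were called lower, and Hist1h3c and Hist1h3f were not (-0.99 ± 0.58, adjusted p = 0.15, and -1.20 ± 0.83, adjusted p = 0.22). Hist2h3c2 was 21.7, 30.4 and 29.9 CPM in WT medium and 3.72, 2.49 and 4.74 CPM with LPS, a log2 fold change of -2.90 ± 0.34 (adjusted p = 8.8e-07). Hist2h3b was 13.8, 22.8 and 19.8 CPM in medium and 3.23, 2.86 and 2.45 CPM with LPS, a change of -2.71 ± 0.29 (adjusted p = 1.3e-07). Hist1h3i, much less abundant, was 2.60, 3.87 and 5.75 CPM in medium and 1.15, 0.254 and 0.381 CPM with LPS. For these 3 H3 genes no LPS library reached a medium library. The H3 sum changed by -2.47 ± 0.27 (adjusted p = 5.7e-07).

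The H1 and H4 sums fell less than those of H2A and H3 in WT cells, though single H1 and H4 genes fell strongly. Hist1h1c was 54.2, 56.6 and 44.9 CPM in medium and 42.1, 36.1 and 45.5 CPM with LPS, and these groups overlapped (log2 fold change -0.33 ± 0.16, adjusted p = 0.089). Hist1h1e, which encodes H1.4, fell from 8.13, 7.91 and 7.70 CPM to 2.90, 5.75 and 2.79 CPM, and Hist1h1b, which encodes H1.5, fell from 2.72, 2.46 and 3.87 CPM to 0.336, 0.233 and 0.552 CPM (-2.97 ± 0.45, adjusted p = 9e-06). The call of Hist1h1e was lost in 2 of the 6 fits that leave out a library. The H1 sum changed by -0.50 ± 0.16 (adjusted p = 0.013). Hist1h2bc was 41.7, 43.4 and 32.6 CPM in medium and 31.9, 59.2 and 55.0 CPM with LPS, with overlap and no call (log2 fold change 0.31 ± 0.16, adjusted p = 0.11). Without the first WT LPS library its change was 0.54 (adjusted p = 7.3e-04), so that library decides the call. Hist1h4i was 2.96, 3.98 and 3.57 CPM in medium and 2.21, 2.38 and 2.91 CPM with LPS and was not called, while Hist1h4d, another H4 gene, was (-1.68 ± 0.46, adjusted p = 0.0038). The H4 sum changed by -0.55 ± 0.19 (adjusted p = 0.015), but this call was lost without the second medium library (adjusted p = 0.087), the first LPS library (0.058) or the second LPS library (0.09).

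**Figure D2:**
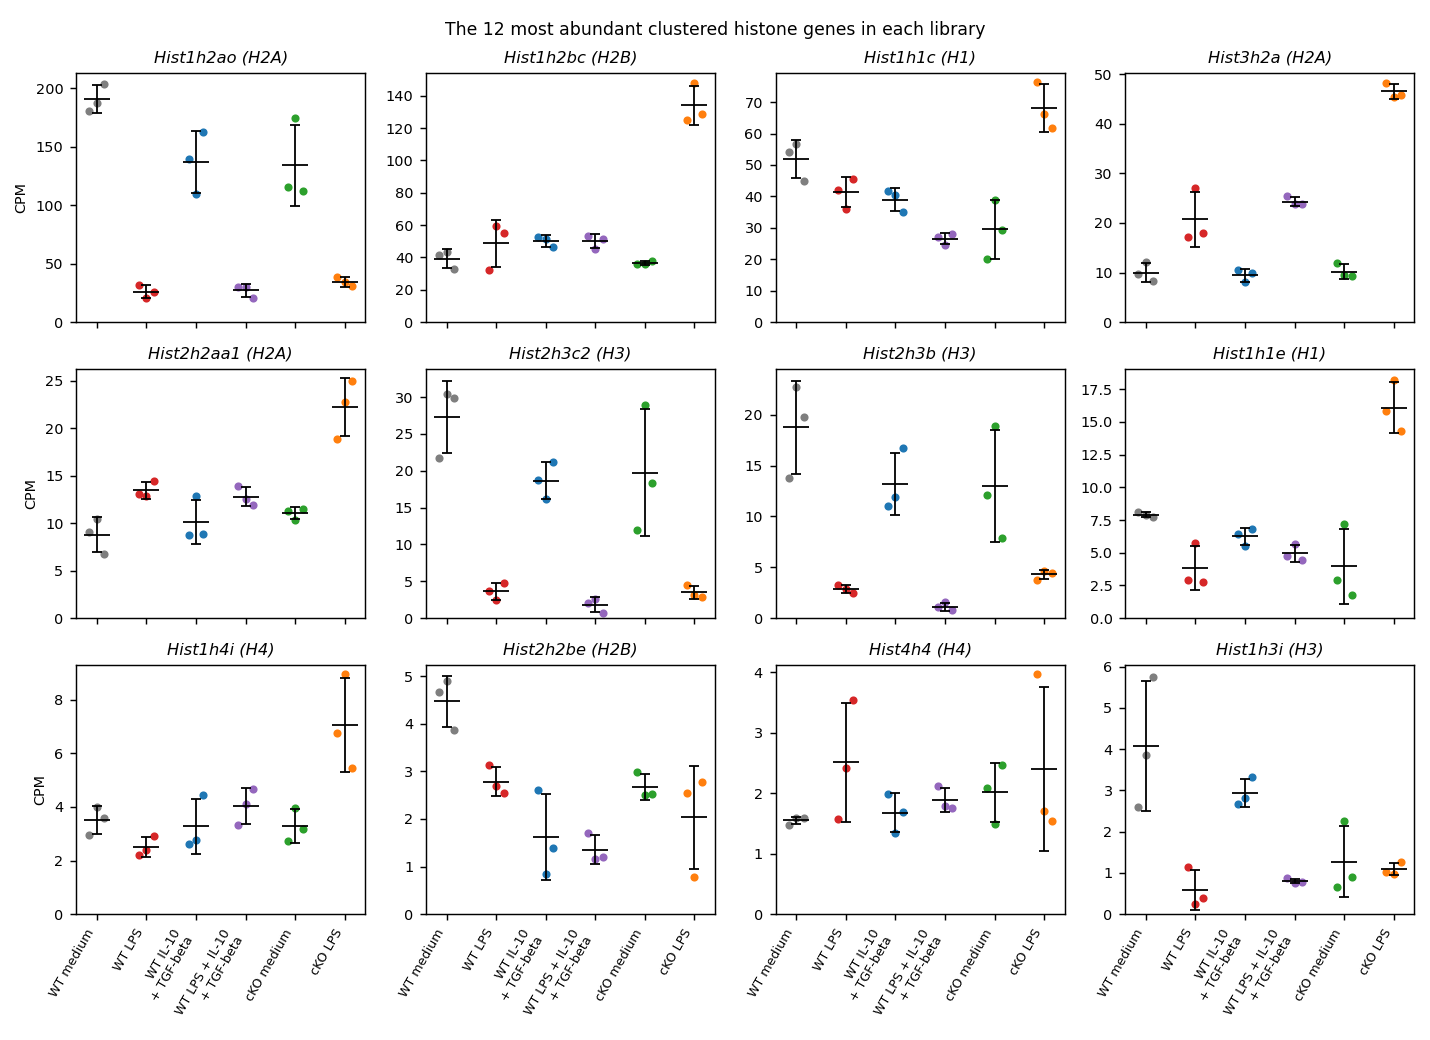
Levels in CPM (vertical axes, linear, from 0) of the 12 most abundant members in each of the 18 libraries, 1 panel per gene with its class. Points are libraries, horizontal marks are means and bars are SDs of 3 libraries; Hist1h2ao, Hist2h3c2 and Hist2h3b are low in all 3 LPS-treated groups, while Hist1h2bc, Hist3h2a and Hist1h1e are highest in cKO LPS.

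In cKO cells LPS raised the H1, H2B and H4 sums, while the H2A and H3 sums fell. Of the 25 tested members 7 were called higher and 3 lower, where 29.3% of tested genes were called higher and 34.8% lower (64.1% in either direction). The 3 that fell were Hist1h2ao, Hist2h3c2 and Hist2h3b. The 7 that rose were Hist1h2bc, Hist1h1c, Hist1h1e, Hist3h2a, Hist2h2aa1, Hist1h4i and Hist1h2bg. The median log2 fold change was 0.29 over the members and -0.09 over all tested genes. In the same contrast 7 of 11 granulocyte markers (median -1.34) and 2 of 5 mast cell and basophil markers were called lower, and their part in the histone values was not tested.

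Hist1h2bc, the main H2B gene, was 36.1, 35.8 and 37.6 CPM in cKO medium and 125, 148 and 129 CPM in cKO LPS, a log2 fold change of 1.88 ± 0.16 (adjusted p = 6.4e-09). No library of the other 5 groups was above 59.2 CPM. Hist1h1c was 20.2, 38.8 and 29.4 CPM in cKO medium and 76.4, 66.3 and 61.7 CPM with LPS (1.21 ± 0.17, adjusted p = 2.7e-06). Hist1h1e was 2.91, 7.20 and 1.79 CPM in medium, with its second library well above the others, and 15.8, 18.2 and 14.3 CPM with LPS (2.03 ± 0.33, adjusted p = 2.1e-05). Hist3h2a was 11.9, 9.41 and 9.22 CPM in medium and 48.2, 45.5 and 45.9 CPM with LPS (2.19 ± 0.17, adjusted p = 5.7e-10), the largest rise of the 7 and well apart from medium. Hist2h2aa1 went from 11.3, 10.4 and 11.5 CPM to 18.9, 22.7 and 25 CPM. Hist1h4i, the most abundant H4 gene, went from 2.73, 3.98 and 3.18 CPM to 6.75, 8.94 and 5.46 CPM (1.11 ± 0.25, adjusted p = 7e-04). In each of these genes every cKO LPS library was above every cKO medium library.

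The members that fell in cKO cells encode H2A and H3. Hist1h2ao was 115, 174 and 112 CPM in cKO medium and 38.8, 33.8 and 30.5 CPM with LPS (-1.96 ± 0.20, adjusted p = 1.4e-07). Hist2h3c2 was 11.9, 29.0 and 18.3 CPM in medium and 4.51, 3.14 and 2.91 CPM with LPS (-2.47 ± 0.36, adjusted p = 9.2e-06). Hist2h3b was 12.1, 18.9 and 7.93 CPM in medium and 3.78, 4.64 and 4.47 CPM with LPS (-1.59 ± 0.29, adjusted p = 8.6e-05). As class sums, H1 changed by 1.28 ± 0.17 (adjusted p = 1.4e-06), H2B by 1.73 ± 0.14 (adjusted p = 1.5e-09), H2A by -0.58 ± 0.13 (adjusted p = 4.9e-04) and H3 by -1.53 ± 0.27 (adjusted p = 9.4e-05). The H4 sum rose by 0.79 ± 0.19 (adjusted p = 8.9e-04), but not on the log2(TPM + 1) scale, where its change was 0.33 (adjusted p = 0.18) and the median of all genes was -0.47. On that scale the H2A sum changed by -1.67 (adjusted p = 3.5e-08), from 622 ± 157 to 192 ± 4.47 TPM, and the H1 sum by 0.71 (adjusted p = 0.0014), so the H2A fall was larger and the H1 rise smaller than in CPM.

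The difference between the 2 LPS responses was tested directly as the genotype by LPS interaction, whose value is the log2 change with LPS in cKO minus that in WT. It was positive and called for 12 of the 25 tested members and negative and called for 0, where 7.33% of tested genes were called higher and 10.1% lower (17.4% in either direction). The median was 1.54 over the members and -0.08 over all tested genes. The value was 3.10 ± 0.47 for Hist1h1e (adjusted p = 3.7e-04), 1.56 ± 0.23 for Hist1h2bc (adjusted p = 2.6e-04) and 1.54 ± 0.23 for Hist1h1c (adjusted p = 3.2e-04). For Hist1h2ao it was 0.91 ± 0.28 (adjusted p = 0.032), and this last call was lost when any of 7 of the 12 libraries was left out or on the TPM scale (adjusted p = 0.12). Class sums gave 1.77 ± 0.23 for H1, 1.60 ± 0.20 for H2B, 1.34 ± 0.26 for H4 and 1.19 ± 0.18 for H2A, each with an adjusted p of 0.002 or less. H3 gave 0.93 ± 0.38 (adjusted p = 0.1), an estimate with an interval of 2 SE from 0.17 to 1.69. In the same test 3 of 11 granulocyte markers were called negative and 0 positive, with a median of -2.14, and 3 of 6 macrophage markers were positive and 1 negative. Their part in the histone values was not tested.

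**Figure D3:**
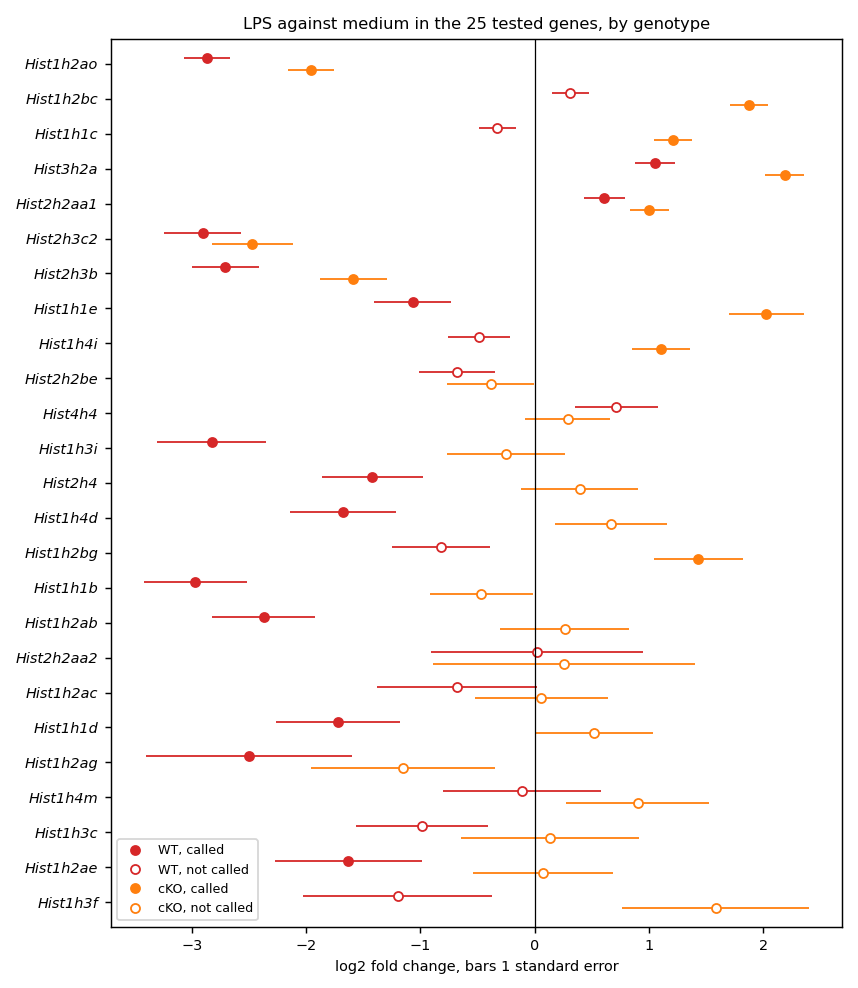
Log2 fold change with LPS against medium (horizontal axis) for the 25 tested members, in order of mean CPM, in WT and in cKO cells. Points are estimates and bars are 1 standard error; filled points have an adjusted p under 0.05. Hist1h2ao, Hist2h3c2 and Hist2h3b lie left of 0 in both genotypes, while Hist1h1e lies at -1.07 in WT and 2.03 in cKO.

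In medium, cKO cells held less of several histone transcripts than WT cells. Of the 25 tested members 9 were called lower and 0 higher, where 14.4% of tested genes were called lower and 15.8% higher (30.2% in either direction). The median was -0.53 over the members and -0.00 over all tested genes. The 9 were Hist1h1b, Hist1h1c, Hist1h1e, Hist1h2ab, Hist1h2ao, Hist1h3c, Hist1h3i, Hist1h4d and Hist2h4. In each the 3 cKO libraries lay below the 3 WT libraries, but the share of all tested genes so separated was not counted.

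Hist1h1c, at 20.2, 38.8 and 29.4 CPM in cKO and 44.9 to 56.6 CPM in WT medium, differed by -0.82 ± 0.16 (adjusted p = 0.001). Hist1h2ab was 0.143, 1.22 and 0.504 CPM in cKO against 2.82 to 3.15 CPM in WT, a difference of -2.23 ± 0.43 (adjusted p = 6.3e-04). Hist1h3i was 0.648, 2.26 and 0.911 CPM in cKO against 2.60 to 5.75 CPM in WT (-1.69 ± 0.41, adjusted p = 0.0037). The more abundant Hist1h2ao differed by -0.51 ± 0.18 (adjusted p = 0.045), and leaving out any of 5 of the 6 libraries raised its adjusted p to between 0.07 and 0.17. Hist1h1e (-1.01 ± 0.33, adjusted p = 0.026) likewise lost its call in 5 of 6 such fits (adjusted p up to 0.12), and Hist2h4 in 1 (0.066). Hist1h2bc, Hist3h2a and Hist1h4i showed no call, with log2 differences of -0.11 ± 0.16, 0.03 ± 0.18 and -0.09 ± 0.26. The H1 sum was lower by 0.86 on the log2 scale (-0.86 ± 0.16, adjusted p = 6.7e-04) and the H2A sum differed by -0.44 ± 0.13 (adjusted p = 0.011). H3 and H4 sums differed by -0.60 ± 0.24 (adjusted p = 0.065) and -0.47 ± 0.18 (adjusted p = 0.056) and H2B by -0.20 ± 0.14 (adjusted p = 0.29).

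This contrast depended on which libraries entered it. The second cKO medium library was the highest of its group in the H1, H2A, H3 and H4 sums, at 49.9, 202, 54.0 and 9.76 CPM. Without it the H3 sum differed by -0.99 (adjusted p = 0.0015). Without the first cKO library the H2A sum differed by -0.36 (adjusted p = 0.065), and 4 members were called in place of 9. With the Xist-carrying first replicate of both cKO groups left out, 4 members were called and the H2A sum was again not called (-0.36, adjusted p = 0.078). Leaving out the second or the third WT library, or the third cKO library, gave 5 members. Beside this contrast, granulocyte markers summed to 1576 to 3898 CPM in cKO medium and 876 to 1384 CPM in WT medium, with 8 of 11 called higher, and mast cell and basophil markers to 9.22 to 25.7 against 1.77 to 6.71 CPM, with 4 of 5 called higher. Macrophage markers summed to 1232 to 1396 against 1282 to 1449 CPM, with 1 of 6 called higher and 3 lower. Their part in the histone differences was not tested.

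Under LPS the direction between genotypes was the opposite. Of the 25 tested members 7 were called higher in cKO and 0 lower, where 16% of tested genes were called higher and 19.3% lower (35.3% in either direction), and the median was 0.96 over the members and -0.05 over all tested genes. The 7 were Hist1h1c, Hist1h1e, Hist1h2bc, Hist1h2bg, Hist1h4i, Hist2h2aa1 and Hist3h2a, in a comparison that shares its cKO LPS libraries with that of LPS against medium in cKO cells. Hist1h2bc was 125 to 148 CPM in cKO LPS against 31.9 to 59.2 CPM in WT LPS (1.46 ± 0.16, adjusted p = 3e-06). Hist3h2a was 45.5 to 48.2 CPM against 17.2 to 27.1 CPM (1.17 ± 0.16, adjusted p = 2.3e-05). Hist1h1e was 14.3 to 18.2 CPM against 2.79 to 5.75 CPM (2.09 ± 0.34, adjusted p = 1.1e-04). Hist1h4i was 5.46 to 8.94 CPM against 2.21 to 2.91 CPM (1.5 ± 0.27, adjusted p = 2.4e-04). Hist1h2bg, a second H2B gene, was 1.82 to 2.93 CPM against 0.560 to 0.789 CPM. In these 5 genes, and also in Hist1h1c and Hist2h2aa1, every cKO LPS library was above every WT LPS library. How often libraries lay apart among all tested genes was not counted, here or in the other comparisons.

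Hist1h1c and Hist2h2aa1 were also higher, by 0.72 ± 0.16 (adjusted p = 0.0021) and 0.72 ± 0.17 (adjusted p = 0.0027). On the log2(TPM + 1) scale their differences were 0.36 (adjusted p = 0.1) and 0.35 (adjusted p = 0.051), where the median of all genes was -0.31. Hist1h2ao and the 5 tested H3 genes showed no call between genotypes under LPS. Hist1h2ao was 30.5 to 38.8 CPM in cKO and 20.7 to 31.8 CPM in WT (0.40 ± 0.21, adjusted p = 0.14), Hist2h3c2 was 2.91 to 4.51 against 2.49 to 4.74 CPM (-0.04 ± 0.42, adjusted p = 0.95), and Hist2h3b was 3.78 to 4.64 against 2.45 to 3.23 CPM (0.59 ± 0.35, adjusted p = 0.2). For Hist2h3c2 the interval of 2 SE ran from -0.89 to 0.81. The class sums differed by 1.40 ± 0.14 for H2B (adjusted p = 7.5e-07), 0.91 ± 0.16 for H1 (adjusted p = 3.1e-04), 0.87 ± 0.19 for H4 (adjusted p = 0.0014), 0.74 ± 0.13 for H2A (adjusted p = 2e-04) and 0.33 ± 0.30 for H3 (adjusted p = 0.42). On the log2(TPM + 1) scale the H2A call was lost (0.19, adjusted p = 0.33) and the H1 difference was 0.52 (adjusted p = 0.02). None of the 11 granulocyte and 5 mast cell and basophil markers tested was called in this contrast.

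**Figure D4:**
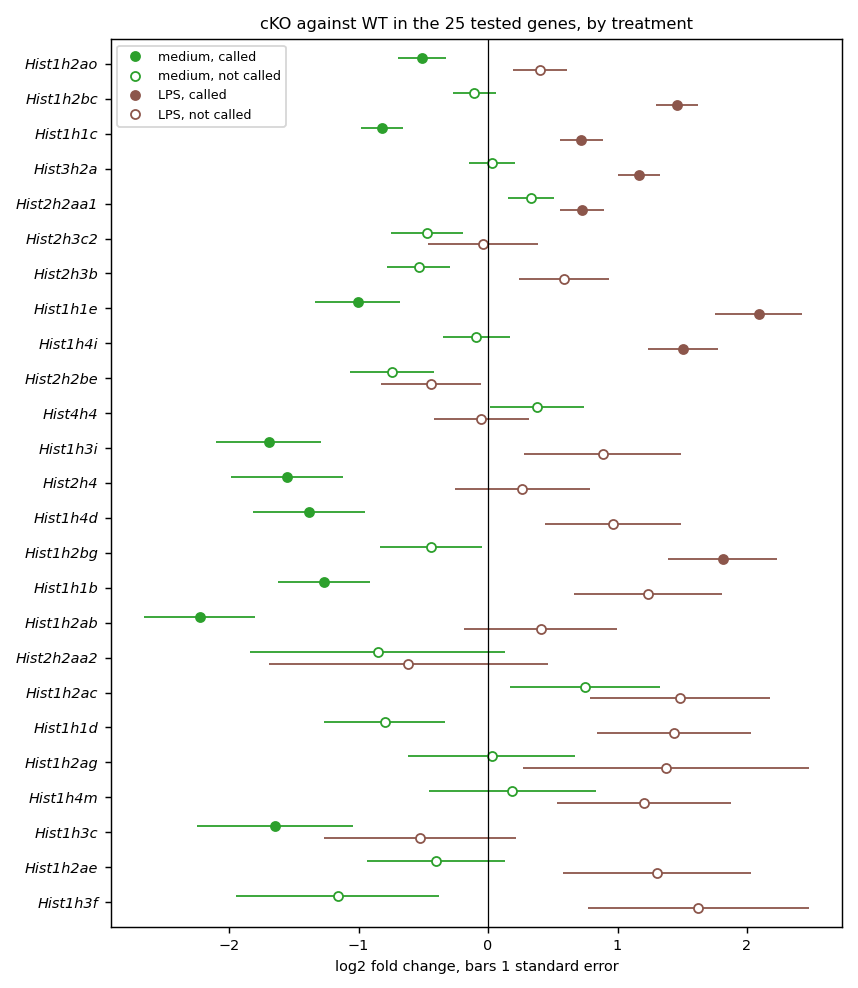
Log2 difference between cKO and WT (horizontal axis) for the 25 tested members, in order of mean CPM, in medium and with LPS. Points are estimates and bars are 1 standard error; filled points have an adjusted p under 0.05. In medium every filled point lies left of 0, and with LPS every filled point lies right of 0.

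The calls were also divided by whether the gene model was over 100 bases longer than the RefSeq gene, which is not the length of the model itself. Of the 10 tested members with such a longer model, 5 were called higher in cKO under LPS (Hist1h1c, Hist1h1e, Hist1h2bg, Hist1h4i and Hist3h2a). Of the other 15, 2 were (Hist1h2bc and Hist2h2aa1). Hist1h2bc could not be compared in this way and is counted among the 15 throughout only because its RefSeq span is longer. In medium, 2 of the 10 and 7 of the 15 were called lower in cKO. For LPS in WT cells the called falls were 4 of 10 and 8 of 15. The interaction divided evenly in number, with 6 of 10 and 6 of 15 called. This split was chosen after the values were seen and is given as a description. Whether the sequenced RNA had been selected for poly(A) tails is not given in the sources used here, and the counts do not separate transcripts that end at the stem-loop from those that run past it.

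IL-10 with TGF-beta changed few members in WT cells. Of the 25 tested members 2 were called lower and 0 higher, where 16.9% of tested genes were called lower and 18.3% higher (35.2% in either direction). Hist2h2be, an H2B gene, was 4.67, 4.89 and 3.87 CPM in medium and 2.61, 0.845 and 1.40 CPM with the cytokines (-1.48 ± 0.34, adjusted p = 0.0019). Hist2h4, an H4 gene, was 2.02, 4.37 and 2.69 CPM in medium and 1.94, 1.13 and 1.23 CPM with the cytokines (-1.10 ± 0.41, adjusted p = 0.043). Same-numbered libraries of these 2 groups varied together, and with the replicate number as a block Hist2h4 was no longer called (-1.09, adjusted p = 0.053) and 1 member was. Its call was also lost in 4 of the 6 fits that leave out a library (adjusted p up to 0.24). The H2A sum changed by -0.41 ± 0.13 (adjusted p = 0.013), a call lost without the second cytokine library (-0.30, adjusted p = 0.095). The H1 sum changed by -0.42 ± 0.16, with an adjusted p of 0.05 that rounds to the threshold and did not pass it.

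Hist1h2ao stayed high with the cytokines, at 139, 109 and 162 CPM, compared with 180.4 to 203 CPM in medium (-0.48 ± 0.18, adjusted p = 0.053). Its libraries did not overlap. The count of called members moved with the method. DESeq2, upper-quartile scaling, removal of Rn45s and limma on log2(TPM + 1) each called 4 members. A fit of these 2 groups alone called 5 of 23. Granulocyte markers summed to 6275 to 8941 CPM with the cytokines against 876 to 1384 CPM in medium, and 7 of 8 tested dendritic cell markers were called lower. Macrophage markers summed to 1876 to 2198 against 1282 to 1449 CPM, with 5 of 6 called higher, and 5 of 5 mast cell and basophil markers were called higher. The part of these other cell markers was not tested.

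Adding LPS to the cytokines lowered Hist1h2ao and the main H3 genes and raised Hist3h2a. Of the 25 tested members 9 were called lower and 1 higher, where 23.1% of tested genes were called lower and 23.9% higher (46.9% in either direction). Hist1h2ao was 29.9, 30.3 and 20.9 CPM with LPS and cytokines (-2.34 ± 0.20, adjusted p = 7.5e-08). Hist2h3c2 was 2.09, 2.65 and 0.665 CPM, against 16.1 to 21.1 CPM with the cytokines alone (-3.34 ± 0.37, adjusted p = 1.2e-06). Hist2h3b was 1.05, 1.55 and 0.786 CPM against 11 to 16.7 CPM (-3.52 ± 0.33, adjusted p = 7.3e-08). Hist3h2a again rose, from 8.03 to 10.5 CPM to 23.7 to 25.4 CPM (1.37 ± 0.17, adjusted p = 1.8e-06). Class sums of H1, H2A and H3 changed by -0.59 ± 0.17, -1.29 ± 0.13 and -2.85 ± 0.28, all called, while H2B (-0.07 ± 0.14) and H4 (0.02 ± 0.18) were not.

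Beside the contrast of LPS with the cytokines against LPS alone, 8 of 8 tested dendritic cell markers were called lower (median -2.74), 7 of 11 granulocyte markers higher (median 1.73), 2 of 5 mast cell and basophil markers higher and 5 of 6 macrophage markers higher (median 1.06), and their part was not tested. This contrast gave 4 members lower and 1 higher of 25, where 21.1% and 19.1% of tested genes were called (40.3% in either direction). Hist1h1c was 27.0, 24.6 and 27.9 CPM with the cytokines against 36.1 to 45.5 CPM without (-0.64 ± 0.17, adjusted p = 0.0045). Hist2h3b differed by -1.31 ± 0.40 (adjusted p = 0.013), a call lost without the third library with LPS and cytokines (adjusted p = 0.057). Hist2h2be, at 1.16 to 1.70 against 2.54 to 3.13 CPM, differed by -1.03 ± 0.38 (adjusted p = 0.037), a call that 5 of the 6 fits leaving out a library did not give (adjusted p up to 0.11). Hist1h3c was lower too. Hist1h4i was higher, at 3.32 to 4.67 against 2.21 to 2.91 CPM (0.69 ± 0.27, adjusted p = 0.048), a call that did not hold without any of 5 of the 6 libraries. The count of called members was 1 without the third library with LPS and cytokines, 2 without the first LPS library and 3 without the second or the third LPS library. The interaction of cytokines with LPS was called for 0 of the 25 members by edgeR's quasi-likelihood test, by DESeq2 and by limma on TPM, and 1 member had an unadjusted p under 0.05, where 8.88% of tested genes were called higher and 12.1% lower (20.9% in either direction).

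Genes that surround histone supply were counted from 4 lists. Of all tested genes, 58.7% were called in either direction for LPS in WT cells and 64.1% in cKO cells. The share was 30.2% between genotypes in medium, 35.3% under LPS and 40.3% for the cytokines under LPS. Of 28 genes of S phase and division, 24 were lower and 0 higher with LPS in WT cells and 21 lower and 2 higher in cKO cells, for example Birc5, a mitotic survivin, at -2.41 ± 0.15 (adjusted p = 2.5e-11) and -2.61 ± 0.16 (adjusted p = 1.2e-11). Their summed level was 2005 to 2653 CPM in WT medium, 1858 to 2194 in cKO medium, 806 to 963 in WT LPS and 882 to 1005 in cKO LPS. Between genotypes 2 of 28 were lower in medium (Pcna, the replication clamp, and Ccne1), and under LPS 4 were higher and 3 lower. Under LPS the genotype difference of these genes had a median of 0.01, beside 0.96 for the tested histone members. Ccne2 (0.81 ± 0.16, adjusted p = 5.4e-04) and Gins2 (0.68 ± 0.18, adjusted p = 0.0062) were among the 4 higher. Ccne1 (-0.48 ± 0.15, adjusted p = 0.014) was among the 3 lower. In the genotype interaction 4 of 28 were positive and 1 negative, where 7.33% and 10.1% of tested genes were. Their part in the histone values was not tested. With the cytokines added to LPS, 18 of 28 were lower and 4 higher.

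Histone variants encoded outside the clusters, most of them by genes whose mRNAs are polyadenylated, summed to 2624 to 3466 CPM over 11 genes in the other groups and 4403 to 4599 CPM in cKO LPS. H2afx, the variant phosphorylated at DNA breaks, fell with LPS from 64.1 ± 8.24 to 7.06 ± 0.444 CPM in WT cells (-3.18 ± 0.17, adjusted p = 3.1e-12) and from 55.2 ± 2.82 to 4.77 ± 1.36 CPM in cKO cells. H3f3a and H3f3b, which both encode H3.3, rose with LPS in cKO cells by 1.02 ± 0.09 and 1.19 ± 0.11 on the log2 scale (adjusted p = 1.6e-09 and 5e-09). Under LPS 6 of 10 tested variants were higher in cKO than in WT and 0 lower, among them Cenpa, the centromeric H3, by 0.89 ± 0.14 (adjusted p = 8.3e-05), H3f3b by 0.53 ± 0.11 (adjusted p = 6.8e-04) and H3f3a by 0.41 ± 0.08 (adjusted p = 8.8e-04). In medium 2 were higher and 1 lower, with H1f0, a linker histone of differentiated cells, higher in cKO by 0.95 ± 0.14 (adjusted p = 8.1e-05).

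Of 14 genes for transcribing and processing histone mRNA, 6 were lower and 3 higher with LPS in WT cells. In cKO cells 7 were lower and 3 higher. As 58.7% and 64.1% of all tested genes were called in these contrasts, and 35.3% between genotypes under LPS, the counts are not read as a result about this list. Slbp, which encodes the stem-loop binding protein, fell by 1.0 on the log2 scale in WT (-1.0 ± 0.12, adjusted p = 3e-07) and by 1.10 in cKO (-1.10 ± 0.12, adjusted p = 7.2e-08). Its level under LPS was 36.6 ± 2.28 CPM in WT and 34.8 ± 1.99 CPM in cKO. Between genotypes under LPS 2 of the 14 were higher and 4 lower, with Cpsf3, the endonuclease that cleaves histone pre-mRNA, lower in cKO (-0.73 ± 0.13, adjusted p = 1.6e-04) and Lsm11, a U7 snRNP subunit, higher (1.28 ± 0.33, adjusted p = 0.0051). Of 19 histone chaperone genes, 11 were lower and 3 higher with LPS in WT cells. Daxx, a chaperone of H3.3, rose by 2.67 ± 0.11 (adjusted p = 5.3e-14), while Ipo4, an importer of histones, fell (-1.62 ± 0.12, adjusted p = 4.5e-10). Under LPS 1 chaperone was higher in cKO and 4 lower, the former being Hat1, which acetylates new H4 (0.48 ± 0.10, adjusted p = 8.8e-04).

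The 43 members below the count filter had a median mean level of 0.149 CPM, and none exceeded 2.23 CPM in any library. Their summed level was 11.7 ± 0.592 CPM in WT medium and 5.65 ± 0.0891 CPM in WT LPS. It was 6.92 ± 1.83 CPM in cKO medium and 7.81 ± 0.634 CPM in cKO LPS. With the cytokines it was 9.74 ± 4.0 CPM, and with LPS and cytokines 4.0 ± 0.972 CPM. At these levels a gene holds few reads per library, and no value of a single gene among the 43 is read as a difference here. A fit with no count filter, over 65 members, called 14 between genotypes in medium, 12 under LPS and 8 for the cytokines. In the same order, 1791, 1922 and 2161 of 20280 genes were called higher and 1861, 2154 and 2037 lower.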

How the data were processed

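The authors deposited gene-level expected counts and TPM from RSEM on mm10, after bcl2fastq, per the submitters' processing notes, which give no versions. Strandedness and poly(A) selection are not given in the sources used here. Expected counts, as deposited by the authors, were rounded; filterByExpr kept 11876 of 23420 genes. All 6 groups were fitted together without covariates in edgeR 4.0.16 (R 4.3.3) with TMM scaling and the robust quasi-likelihood F-test. P-values were adjusted over all tested genes by Benjamini-Hochberg in each of 7 comparisons and 2 interactions, with calls at an adjusted p under 0.05. For class sums the members' rows were replaced by 5 summed rows in the same table. TPM values, deposited by the authors and scaled per length, served to compare genes and, as log2(TPM + 1) and log2(TPM + 0.1) in limma 3.58.1, as alternatives. The procedure was tested on simulated data.

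Members and gene lists were chosen with earlier results of these data known. Members named in the text are the 12 with the highest mean CPM, up to 3 called members with the smallest p per direction and comparison, up to 3 called genes of each list, and Bag6; Hist1h1b, Hist1h4d, Hist1h2bg, Hist1h1d, Hist1h3c, Hist1h3f, Hist1h2bq and Hist1h2br were named after their values were seen. Alternatives were DESeq2 1.42.0, scaling by RLE or by the upper quartile, testing every gene or those with at least 5 CPM in 3 libraries, fitting only the groups compared, a replicate block, Rn45s removed, the first replicate of both cKO groups left out, and each library left out. Replicate numbers come from the sample titles, which do not say what a number shares. Deviations of same-numbered libraries from their group means correlated over 0.1 in all 3 pairs only for WT medium and WT cytokines (0.338, 0.191 and 0.416 over 9229 genes), so this pairing comes from the data. Sequences are from RefSeq on GRCm38.p6, where 67 of 68 members matched by accession, and from GENCODE M21. Replicates differed by more than sampling noise.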

Additional observations from a re-analysis of the deposited data

Results flagged for a closer look

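The LPS response differed between cKO and WT cells for 4 class sums and 12 members, by edgeR's quasi-likelihood test of the interaction term over 3 libraries in each of 4 groups. Each value is the log2 change with LPS in cKO minus that in WT. For sums it was 1.77 for H1, 1.19 for H2A, 1.60 for H2B and 1.34 for H4. Among H1 genes it was 2.50 for Hist1h1b (adjusted p = 0.014), 1.54 for Hist1h1c, 2.24 for Hist1h1d (adjusted p = 0.046) and 3.10 for Hist1h1e. Among H2A genes it was 2.63 for Hist1h2ab (adjusted p = 0.019), 0.91 for Hist1h2ao and 1.14 for Hist3h2a (adjusted p = 0.0032). For H2B it was 1.56 for Hist1h2bc and 2.25 for Hist1h2bg (adjusted p = 0.011). For H3 it was 2.58 for Hist1h3i (adjusted p = 0.019), and for H4 2.35 for Hist1h4d (adjusted p = 0.022) and 1.59 for Hist1h4i (adjusted p = 0.0062). Hist1h1c, Hist1h1e, Hist1h2bc, Hist1h2bg and Hist1h4i were called higher with LPS in cKO cells, and Hist3h2a in both genotypes, whereas Hist1h1b, Hist1h1d, Hist1h2ab, Hist1h3i and Hist1h4d were called lower in WT cells and not called in cKO cells. Leaving out a library took the call from Hist1h2ao in 7, Hist1h3i in 2 and Hist1h2ab in 1 of 12 fits. Such fits were not recorded for Hist1h1b, Hist1h1d, Hist1h2bg and Hist1h4d, so how firm their calls are is not known. Groups of 3 are too small for a test of outlying libraries.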

How the results depend on the processing

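Under the alternatives, values were kept for class sums and for members named by rule. They were not kept for Hist1h1b, Hist1h1d, Hist1h2bg, Hist1h4d, Hist1h3c and Hist1h3f. No direction of a class sum or kept member that was called reversed under any alternative. Of 470 class-sum values under other settings 438 kept their side of the threshold, 27 crossed it to become called and 5 lost the call. Under TPM scaling the median of all genes was -0.47 for LPS in cKO, against -0.09 as reported, and -0.31 between genotypes under LPS, against -0.05. Low depth limits members under 1 CPM. Same-numbered libraries of WT medium and WT cytokines paired, and the replicate block left 1 member called there. Elsewhere the labels share only a number. Deviations of same-numbered cKO medium and cKO LPS libraries correlated by 0.218, 0.0954 and 0.158, and both first replicates carried Xist. Outside WT medium and WT cytokines the block took the call from Hist1h2ao between genotypes in medium (-0.51, adjusted p = 0.063). It took none from any class sum or any other member whose values were kept.

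Members called are given as main count against others, and the number tested changed with the setting. The main fit tested 25 members, the fit without a count filter 65 and the fit at 5 CPM or more 8. Without the first cKO replicates 27 were tested, and 26 to 29 with 1 library left out. In medium between genotypes the count was 9, with 14 unfiltered, 3 at 5 CPM or more and 4 without the first cKO replicates. Under LPS it was 7, with 12 without a filter. For LPS in WT it was 14 of 25, with 6 of 8 at 5 CPM. At 5 CPM 3216 of 9954 genes were called higher there and 3124 lower. For the cytokines it was 2, with 4 by upper quartile, DESeq2, TPM + 1 and without Rn45s. It was 8 without a filter, 5 of 23 with only those groups and 1 at 5 CPM. For the cytokines under LPS it was 5, with 2 at 5 CPM and 3 of 13 with only those groups. For LPS on the cytokines it was 10, with 5 at 5 CPM. The genotype interaction had 12, with 5 at 5 CPM, and the cytokine interaction 0, with 1 without a filter. Leaving out each library gave 4 to 11, 7 to 8, 10 to 13, 10 to 11 (LPS in cKO), 1 to 4, 1 to 4, 9 to 12, 9 to 13 and 0 to 1. Of the single libraries, leaving out the first WT medium library gave 4 for the cytokines, and the second WT medium or second cytokine library gave 1; the first WT LPS library gave 1 for the cytokine interaction.

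Class sums between genotypes in medium: H2A was -0.36 without the first cKO replicates. H3 was -0.63 by DESeq2 and -0.63 unfiltered, and -0.78 on TPM + 1. H4 was -0.49 by RLE, upper quartile, DESeq2 and without Rn45s, -0.84 on TPM + 1 and -0.85 on TPM + 0.1. Under LPS H2A was 0.19 on both TPM scales, and H4 for LPS in cKO was 0.33 and 0.34. For the cytokines H1 was -0.42 by RLE, DESeq2, unfiltered and without Rn45s, -0.48 by upper quartile, -0.43 with only those groups and -0.57 on both TPM scales. H3 was -0.50 unfiltered and -0.51 with only those groups, and H4 -0.58 on TPM + 1. The H3 genotype interaction was 1.01 by DESeq2 and 0.96 unfiltered. The cytokine interaction was 0.58, 0.49 and 0.50 for H2A by upper quartile, unfiltered and with only those groups, and 0.98 and 1.00 for H4 on the TPM scales. The causes were not tested.

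Leaving out each library moved the sums in medium between -0.64 and -0.36 for H2A, -0.99 and -0.44 for H3 and -0.56 and -0.33 for H4. For LPS in WT the ranges were -0.56 to -0.45 for H1, -0.014 to 0.32 for H2B and -0.80 to -0.41 for H4. For the cytokines they were -0.48 to -0.36 for H1 and -0.54 to -0.30 for H2A. For the cytokines under LPS they were -0.56 to -0.46 for H1, lost without the third WT LPS or the second library with LPS and cytokines, and -1.17 to -0.61 for H3, lost in 4 of 6. The genotype interaction of H3 ran from 0.76 to 1.31, and the cytokine interaction from 0.37 to 0.61 for H2A and 0.43 to 0.82 for H4.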

Other observations

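Hist1h2bq and Hist1h2br, both H2B genes below the count filter, had equal CPM in all 18 libraries, from 0.189 to 1.38 CPM. Of the 50-base stretches of their transcripts, 100% and 99.8% occur in other members. The share of the members' CPM held by Hist1h2ao was 47.4% ± 3.01 (SD, n = 3) in WT medium, 46.6% ± 2.31 in cKO medium and 42.6% ± 3.97 with the cytokines. It was 14.4% ± 4.20 in WT LPS, 15.9% ± 2.67 with LPS and cytokines and 9.41% ± 0.964 in cKO LPS. The share held by Hist1h2bc ran the other way, from 9.76% ± 1.45 in WT medium and 13.2% ± 2.77 in cKO medium to 26.3% ± 6.35 in WT LPS and 36.7% ± 2.63 in cKO LPS. These shares do not depend on library scaling.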
